A study of Mus musculus with 9 samples.

Results

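The comparison described here is that of kidneys from a mouse model of diabetes with kidneys from mice on a control diet. It rests on 6 of the 9 libraries of the series, and these were chosen by their titles: 3 libraries of normal calorie diet plus vehicle (NCD vehicle, called control below) and 3 of high-fat diet, streptozotocin and vehicle (HFD-STZ vehicle). The other libraries came from diabetic mice dosed with dehydrozingerone at 50 mg/kg by mouth for 2 weeks. They enter the choice of genes tested, the scaling of the libraries and the shared estimate of spread, but not the contrast itself. With only the 6 libraries compared, 15926 rather than 17179 genes were tested. Diets began at 6 weeks of age, with 49.0% of calories from fat in the model and 11.32% in the controls. Carbohydrate gave 29.23% of calories in the model and 63% in the controls, and protein 24.2% and 22.48%. The model mice also had streptozotocin, a toxin taken up by insulin-producing beta cells, injected into the abdomen at 30 mg/kg on days 60 and 63, and raised fasting glucose was checked on day 65. Both arms received vehicle. The labels used here name neither the vehicle's make-up nor the strain or sex of the mice. RNA came from whole kidney, so a lower value in bulk tissue can mean fewer cells of a type or less RNA per cell, and these cannot be told apart. The labels do not say that each library is a separate animal, so p-values measure the spread between these samples only. Each library also has a batch date of its own, and these dates run in group order, so a batch effect cannot be told apart from that of the model.

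The kidney filters plasma in the glomerulus, whose podocytes and capillary wall hold back protein. The proximal tubule then reclaims glucose, amino acids and phosphate and makes glucose itself, the distal nephron adjusts calcium, sodium and acid, and proximal cells activate vitamin D. In diabetes, excess filtered glucose reaches the proximal tubule, and long-standing disease damages podocytes, tubules and the matrix between them.

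The 6 libraries held 15109595 to 34852364 counts assigned to genes. Mitochondrially encoded genes took 39.2% to 51.5% of the counts in the control libraries and 45.0% to 60.4% in HFD-STZ. Genes classed as unprocessed pseudogenes took 19.1% to 25.2% in control and 21.1% to 26.2% in HFD-STZ. HFD-STZ replicate 2 stood apart: it had the highest mitochondrial share, the fewest counts of nuclear protein-coding genes (2.13 M, with M for mega, against 3.94 to 8.49 M in the other 5) and the fewest genes detected (19397). It lay at −70.5 on the first principal component of the 6 libraries, which held 54.7% of the variance, with the other libraries between −14.7 and 37.0. Spread between replicates was taken over the 11498 genes whose mean log2 CPM was 1 or more. The median standard deviation of log2 CPM was 0.38 in HFD-STZ and 0.24 in control. The median absolute log2 difference was 0.32 between HFD-STZ replicates 1 and 3, within the 0.18 to 0.36 of control pairs. It was 0.52 and 0.49 for the HFD-STZ pairs that include replicate 2, so the wider spread lay with that library. CPM here means counts per M counts of a library size scaled by edgeR's TMM factor (the trimmed mean of M values). Libraries with Y-linked transcripts were 1 of 3 in control (replicate 1) and 2 of 3 in HFD-STZ (replicates 2 and 3). On the first principal component they lay at −10.2, −70.5 and −14.7. The libraries without lay at 37.0 and 34.8 (control replicates 2 and 3) and 23.5 (HFD-STZ replicate 1). Mitochondrial shares were 51.5%, 60.4% and 52.4% with these transcripts, and 41.5%, 39.2% and 45.0% without. So the first component also separated libraries by Y-linked transcripts, and the reason was not tested. Of the labelled tissue's own markers, 15 of 15 podocyte genes, 27 of 27 genes of both proximal tubule lists and 11 of 12 genes of the thick ascending limb had enough counts to be tested.

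Of 17179 genes tested with edgeR's quasi-likelihood test, 9 (0.0524%) were called at a Benjamini-Hochberg adjusted p below 0.05, which is the threshold used throughout. They were 4 higher (0.0233%) and 5 lower (0.0291%) in HFD-STZ, and all were protein-coding. At an unadjusted p below 0.05 there were 598 genes higher (3.48%) and 678 lower (3.95%), 7.43% together. The 3 values of one group lay wholly outside the 3 of the other for 830 genes higher (4.83%) and 1127 lower (6.56%), 11.4% together. The fitted change was at least 2-fold for 475 genes upward and 608 downward, most of them without a call, and the median over all genes was −0.0031 on the log2 scale. Protein-coding genes passed the unadjusted threshold in 7.79% of cases, long non-coding genes in 7.05% and pseudogenes in 3.47%. The precision depended on the level: the median standard error (SE) of the log2 fold change was 0.60 for the 3526 genes with a mean log2 CPM below 0 and 0.24 for the 2676 genes between 4 and 6. For the 718 genes above 6 it was 0.29.

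**Figure D1:**
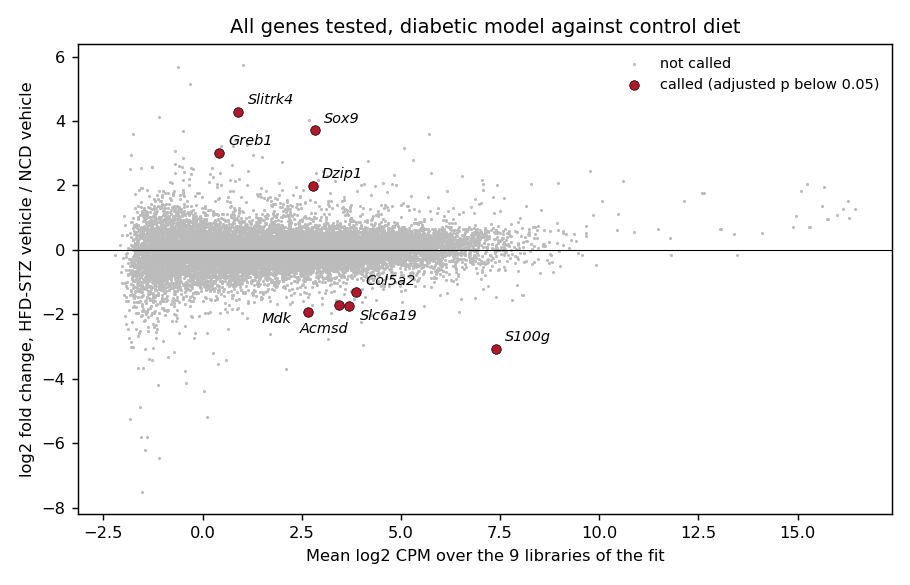
Each point is 1 of the 17179 genes tested, with its mean log2 CPM over the 9 libraries of the fit on the horizontal axis and its log2 fold change of HFD-STZ vehicle over NCD vehicle on the vertical axis. The 9 called genes are drawn in red with their names, from Slitrk4 at 4.29 to S100g at −3.06, and the other genes, in grey, spread more widely where the level is low.

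The genes that fell include S100g, Slc6a19 and Acmsd, which have known roles in tubule cells. S100g encodes calbindin-D9k, a small protein that buffers calcium on its way across distal tubule cells and that vitamin D is known to induce in the gut. Slc6a19 encodes the brush border transporter that reclaims neutral amino acids in the proximal tubule, and Acmsd an enzyme that steers tryptophan breakdown away from NAD. The 250 bases before the annotated starts of S100g and Slc6a19 are shown because promoters are where factors such as the vitamin D receptor and other nuclear receptors can act. They are read 5′ to 3′ on the gene's strand from RefSeq's GRCm38.p6, an older build than the GRCm39 of the counts. Capitals mark the hexamer AGGTCA, a half-site of nuclear receptors, on either strand.
S100g, chrX:162964600-162964849, minus strand: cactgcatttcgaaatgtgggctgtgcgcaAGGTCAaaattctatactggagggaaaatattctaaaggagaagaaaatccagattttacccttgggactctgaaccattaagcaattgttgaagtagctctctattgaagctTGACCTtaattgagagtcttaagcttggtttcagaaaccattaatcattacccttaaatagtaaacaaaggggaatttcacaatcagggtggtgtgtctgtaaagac
Slc6a19, chr13:73692637-73692886, minus strand: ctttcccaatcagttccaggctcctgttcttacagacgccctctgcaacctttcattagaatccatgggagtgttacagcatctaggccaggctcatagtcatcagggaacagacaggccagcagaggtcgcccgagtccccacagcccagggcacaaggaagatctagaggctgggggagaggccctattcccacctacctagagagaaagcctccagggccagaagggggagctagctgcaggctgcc
The hexamer occurred 2 times before S100g and 0 times before Slc6a19. At least 1 match stands in 14.0% and at least 2 in 1.36% of all 32851 windows of this length, AGGTCA being searched on both strands. Greb1 had 1 match in 1 of its windows, and Dzip1 had 0 in any. The S100g window was also low in G and C (38.4%, against a median of 52.4% over all windows). These matches describe letters in the windows and show no binding.

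S100g stood at 337, 461 and 385 CPM in control replicates 1, 2 and 3 and at 41.6, 41.9 and 58.0 CPM in those of HFD-STZ. Every control library was far above every HFD-STZ library, and the 3 HFD-STZ values lay close together. The fall was 8.35-fold (log2 fold change −3.06, SE 0.28, adjusted p = 9.5e-04, edgeR). Slc6a19 had 17.9, 15.9 and 14.4 CPM in control and 5.58, 5.53 and 3.57 CPM in HFD-STZ, again without overlap (−1.73, SE 0.24, adjusted p = 0.035, edgeR). Acmsd gave 17.5, 14.0 and 13.8 CPM in control against 3.36, 6.07 and 4.53 CPM, with HFD-STZ replicate 1 the lowest (−1.73, SE 0.26, adjusted p = 0.045, edgeR). The calls of Slc6a19 and Acmsd were lost without any 1 control library, whereas S100g was called whichever of the 6 libraries was left out, at log2 fold changes from −3.24 to −2.94.

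The other genes that fell encode a secreted growth factor and a matrix protein. Mdk, for midkine, a heparin-binding growth factor made by tubule cells, had 11.3, 10.9 and 11.7 CPM in control and 3.09, 1.75 and 3.77 CPM in HFD-STZ. The control values were almost level and the lowest HFD-STZ value was that of replicate 2, the shallow library (−1.92, SE 0.26, adjusted p = 0.035, edgeR). Col5a2, a chain of type V collagen that starts and thins collagen fibrils, had 25.8, 24.1 and 22.0 CPM in control and 9.38, 9.58 and 10.2 CPM in HFD-STZ. It had the smallest change of the 9 genes but also little spread in either group (−1.30, SE 0.20, adjusted p = 0.046, edgeR), and it was called in 0 of the 6 fits that left out 1 of the compared libraries.

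Among the 4 genes that rose, Sox9 had the lowest p. It encodes a transcription factor that tubule cells switch on after injury and during repair. It stood at 0.642, 1.25 and 1.33 CPM in control and at 14.0, 9.98 and 19.3 CPM in HFD-STZ, so the lowest HFD-STZ library was well above the highest control library. The rise was 13.2-fold (log2 fold change 3.72, SE 0.32, adjusted p = 8.4e-04, edgeR), and it stayed between 3.45 and 3.92 on the log2 scale whichever of the 6 libraries was left out, with a call each time. Dzip1, a protein at the base of the primary cilium that takes part in hedgehog signalling, had 2.73, 2.28 and 2.04 CPM in control and 7.16, 10.4 and 10.5 CPM in HFD-STZ (1.99, SE 0.30, adjusted p = 0.045, edgeR). All 3 HFD-STZ values were at least 7.16 CPM and no control value passed 2.73 CPM.

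The remaining pair rose from a low level. Greb1, a cofactor induced by oestrogen, had 5, 13 and 13 counts in the control libraries and 78, 26 and 43 in HFD-STZ, or 0.267, 0.54 and 0.332 CPM against 4.23, 3.51 and 1.73 CPM (3.02, SE 0.46, adjusted p = 0.045, edgeR). Slitrk4, a membrane protein known from synapses, had 1, 5 and 13 counts in control and 62, 39 and 113 in HFD-STZ, or 0.0535, 0.208 and 0.332 CPM against 3.36, 5.26 and 4.53 CPM (4.29, SE 0.60, adjusted p = 0.035, edgeR). For both genes the groups were apart, yet the control level rests on few reads. All of the called genes other than Sox9 and S100g lost the call without control replicate 1, 2 or 3. Leaving out HFD-STZ replicate 1 ended the calls of Acmsd, Greb1 and Col5a2, leaving out replicate 2 those of Dzip1, Greb1, Slitrk4 and Col5a2, and without replicate 3 Greb1 was the single one of the 7 still called.

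**Figure D2:**
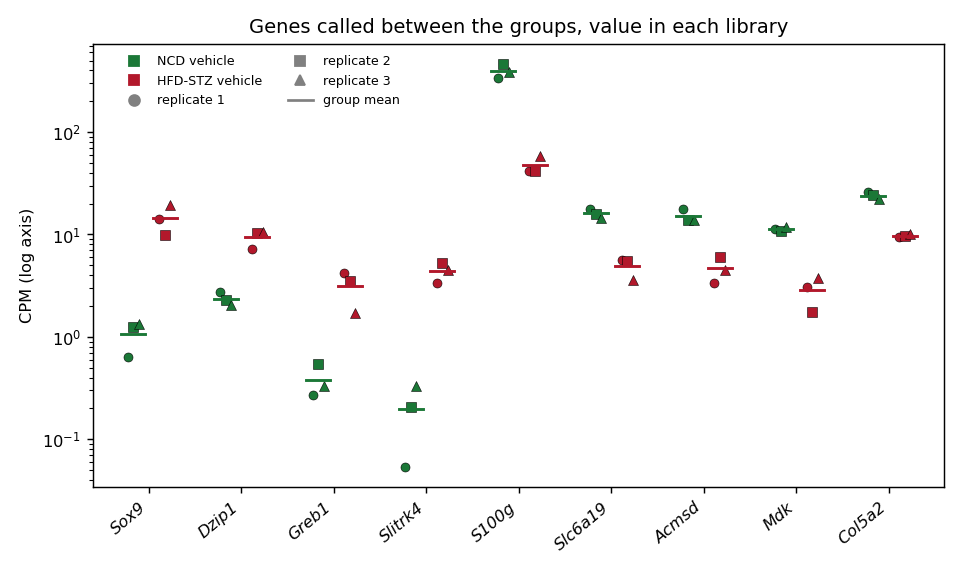
The vertical axis is CPM on a log axis and each point is 1 library, green for NCD vehicle and red for HFD-STZ vehicle, with the marker's shape giving the replicate and a line at the group mean. The genes that rose (Sox9, Dzip1, Greb1 and Slitrk4) stand on the left and those that fell on the right, and in none of the 9 do the groups overlap.

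Pck1 and Slc5a2 had the lowest p of the genes that were not called. Pck1, the enzyme that commits carbon to new glucose in the proximal tubule, had 287, 158 and 194 CPM in control and 673, 1242 and 1567 CPM in HFD-STZ. No control library reached the lowest HFD-STZ library, at a 5.45-fold difference (log2 fold change 2.45, SE 0.39), and the adjusted p = 0.052 from edgeR missed the threshold. Slc5a2, the transporter SGLT2 that reclaims most filtered glucose, had 58.1, 49.9 and 39.7 CPM in control and 20.8, 10.7 and 16.3 CPM in HFD-STZ (−1.62, SE 0.26, adjusted p = 0.052, edgeR). Slc16a6, of the monocarboxylate transporter family, had 18.9, 8.35 and 6.44 CPM against 48.1, 68.2 and 113 CPM (2.77, SE 0.46, adjusted p = 0.071, edgeR). The spread within HFD-STZ was wide for Slc16a6, with replicate 3 above replicates 1 and 2.

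In the list for glucose transport and gluconeogenesis, 20 of 20 genes were tested, 0 were called, 2 were higher and 3 lower at an unadjusted p below 0.05, and the median log2 fold change was −0.01. Its sugar transporters lay on both sides of control. The fructose transporter Slc2a5 had 4.38, 6.81 and 7.31 CPM in control and 2.71, 1.21 and 1.69 CPM in HFD-STZ (−1.68, adjusted p = 0.14, edgeR). The basolateral glucose exporter Slc2a2 had 23.5, 19.0 and 14.6 CPM and 26.7, 45.5 and 31.3 CPM (0.85, adjusted p = 0.43, edgeR). So in the HFD-STZ libraries Slc5a2 and Slc2a5 lay below all control values while Slc2a2 lay above them, without a call for any of these genes. The summed level of the list was 698 to 756 CPM in control and 1123 to 2028 CPM in HFD-STZ, and the mean of Pck1 alone was 213 ± 66.4 CPM in control and 1160.4 ± 453 CPM in HFD-STZ (SD, n = 3 each).

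Vitamin D and mineral handling genes were also near the top of the ranking. Of 20 genes in the list for calcium, magnesium and vitamin D, 19 were tested, S100g was called, and 2 were higher and 5 lower at an unadjusted p below 0.05 (median −0.24). Vdr, the vitamin D receptor, had 52.6, 46.7 and 43.8 CPM in control and 83.4, 113 and 152 CPM in HFD-STZ (1.28, SE 0.25, adjusted p = 0.11, edgeR). Cyp24a1, the enzyme that breaks down active vitamin D, had 8.07, 5.03 and 7.92 CPM in control and 22.2, 94.0 and 136 CPM in HFD-STZ (3.58, SE 0.71, adjusted p = 0.18, edgeR). HFD-STZ replicate 1, without Y-linked transcripts, was well below replicates 2 and 3, although above every control. Cyp27b1, the enzyme that makes active vitamin D, had 59, 26 and 40 counts in control and 1, 0 and 4 in HFD-STZ, or 3.15, 1.08 and 1.02 CPM against 0.0542, 0 and 0.161 CPM (−4.14, SE 0.92, adjusted p = 0.19, edgeR). The making and the breaking enzyme thus lay on opposite sides of control in all 3 HFD-STZ libraries, without a call for either.

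Distal calcium genes lay on both sides of control. Calb1, the larger calbindin-D28k, had 112, 123 and 111 CPM in control and 54.3, 41.3 and 85.8 CPM in HFD-STZ (−0.93, adjusted p = 0.48, edgeR). Trpv5, the apical calcium channel, had 3.74, 4.57 and 3.96 CPM and 1.14, 2.43 and 2.77 CPM (−0.96, adjusted p = 0.55, edgeR). The groups did not overlap for either gene, as for 11.4% of all genes. Pvalb, a calcium buffer of the early distal convoluted tubule, went the other way, with 3.69, 5.57 and 3.81 CPM in control and 10.1, 7.28 and 19.9 CPM in HFD-STZ (1.53, adjusted p = 0.3, edgeR). Over the list of distal convoluted and connecting tubule markers, 15 of 15 were tested, 1 was called (S100g), 1 was higher and 3 lower at an unadjusted p below 0.05, 10 had a positive and 5 a negative estimate, and the median was 0.05. The summed level of that list was 2015 to 2474 CPM in control and 1848 to 2165 CPM in HFD-STZ, ranges that overlap.

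**Figure D3:**
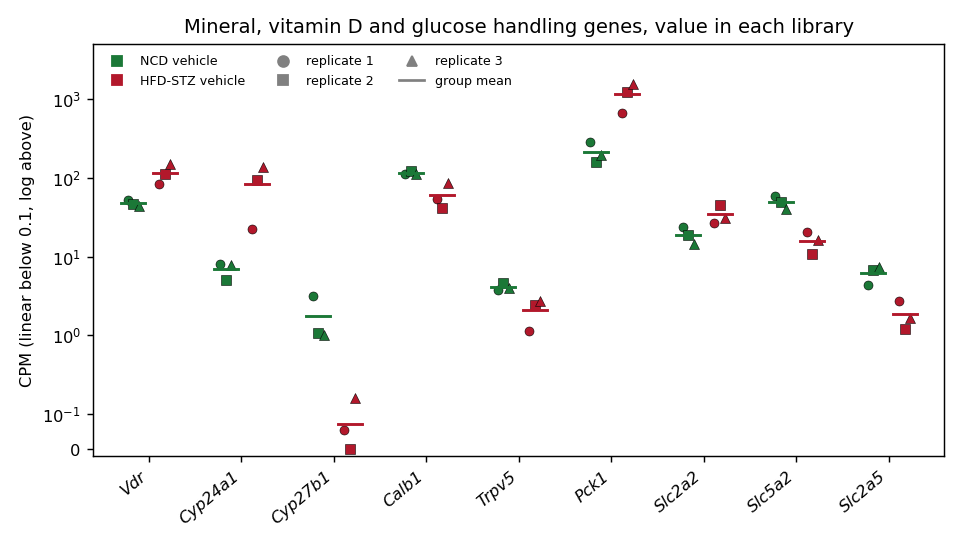
The vertical axis is CPM, linear below 0.1 and logarithmic above, and each point is 1 library (green NCD vehicle, red HFD-STZ vehicle, shape for the replicate, line at the group mean). Vdr, Cyp24a1, Pck1 and Slc2a2 lie higher and Cyp27b1, Calb1, Trpv5, Slc5a2 and Slc2a5 lower in HFD-STZ without overlap, and Cyp24a1 spreads from 22.2 to 136 CPM within HFD-STZ. None of these 9 genes was called.

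Further genes were taken by lowest p among protein-coding genes that were not called and had a mean log2 CPM of at least 1, 12 in each direction, all without overlap by the rule. Besides Pck1, Slc16a6 and Vdr, the higher ones include enzymes of small-molecule metabolism. Enpp6, which splits choline phosphates, had 75.9, 56.6 and 53.1 CPM in control and 120.1, 279 and 274 CPM in HFD-STZ (1.86, adjusted p = 0.085, edgeR). Vnn1, a pantetheinase controlled by the fatty acid sensor PPAR-alpha, had 22.8, 27.8 and 22.3 CPM and 36.8, 71.8 and 60.4 CPM (1.21, adjusted p = 0.14, edgeR). Ltc4s makes leukotriene C4 and Ces2e is a carboxylesterase, and their log2 fold changes were 2.44 (adjusted p = 0.085, edgeR) and 1.86 (adjusted p = 0.14, edgeR). Gulo, the last enzyme of vitamin C synthesis, had 0, 0 and 6 counts in control and 64, 11 and 156 in HFD-STZ, a mean of 0.0511 ± 0.0885 against 3.74 ± 2.40 CPM (SD, n = 3 each, adjusted p = 0.11, edgeR). With 6 control counts in all, its fold change has no firm value.

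Adrb1, the beta-1 adrenergic receptor that drives renin release, had 2.41, 2.04 and 2.27 CPM in control and 6.07, 6.61 and 5.50 CPM in HFD-STZ (1.43, adjusted p = 0.066, edgeR), with little spread in either group. Noct, the rhythmically expressed nocturnin, had a log2 fold change of 1.37, and Apobec2, of the APOBEC family, one of 1.73, both at an edgeR adjusted p = 0.14. Loxl2, which cross-links collagen, had 3.90, 3.20 and 3.42 CPM in control and 7.32, 6.34 and 11.2 CPM in HFD-STZ (1.26, adjusted p = 0.14, edgeR).

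The 12 lower genes include Slc5a2, given above. Dpep1, a brush border dipeptidase, had 36.9, 21.5 and 20.2 CPM in control and 9.05, 11.9 and 7.78 CPM in HFD-STZ (−1.47, adjusted p = 0.085, edgeR). Cyp2d12, a cytochrome P450, had 46.0, 29.5 and 27.2 CPM and 11.1, 3.10 and 6.98 CPM (−2.24, adjusted p = 0.066, edgeR). Slc7a7, which exports cationic amino acids into the blood, had 16.8, 15.8 and 11.6 CPM and 5.58, 8.23 and 5.70 CPM (−1.20, adjusted p = 0.11, edgeR). Fam151a (−1.96), the lectin-like Clec2h (−2.75) and the enzyme-like Uap1l1 (−1.40) also ranked here, at adjusted p of 0.077, 0.06 and 0.11 from edgeR.

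Mgp, a matrix protein that blocks calcification, had 26.5, 24.1 and 20.7 CPM in control and 11.7, 9.71 and 9.23 CPM in HFD-STZ (−1.22, adjusted p = 0.085, edgeR). Abcc6, a transporter whose loss causes ectopic mineral deposits, had 6.10, 5.69 and 4.83 CPM and 1.95, 2.16 and 1.93 CPM (−1.47, adjusted p = 0.076, edgeR). Ccn2, a matricellular target of TGF-beta, had 23.6, 17.2 and 25.5 CPM against 11.0, 10.5 and 7.14 CPM, and the secreted matrix protein Olfml3 13.6, 9.85 and 10.4 CPM against 5.75, 3.37 and 4.21 CPM. Ccn2 lay at −1.22 (adjusted p = 0.11, edgeR) and Olfml3 at −1.32 (adjusted p = 0.13, edgeR). Across the 24 genes, DESeq2 called all 24 at an adjusted p below 0.05, limma-voom 5, and edgeR without its low-count filter all 24. In edgeR, 0 of the 24 were called with only the 6 libraries compared, under a replicate block (a term for the replicate number), without mitochondrial genes, without any 1 control library or without HFD-STZ replicate 3. There were 2 with DESeq2's size factors, 4 with size-only scaling, 8 without HFD-STZ replicate 1 and 3 without replicate 2. With a term in the fit for libraries with Y-linked transcripts, edgeR called 42 genes in all, among them the 9 and 15 of the 24.

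**Figure D4:**
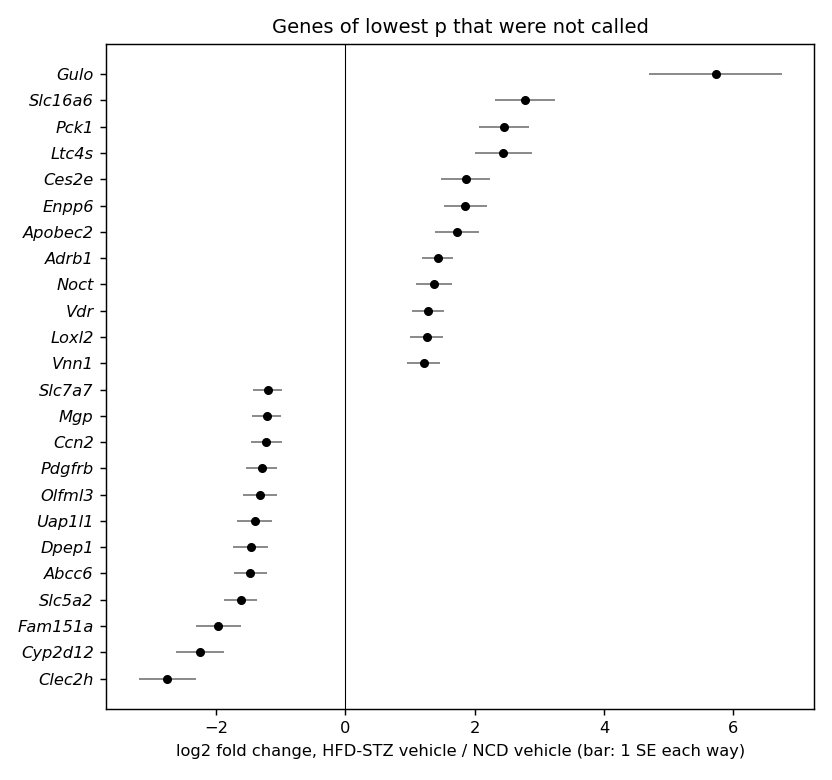
Log2 fold change of HFD-STZ vehicle over NCD vehicle (horizontal axis, bar 1 SE each way) for the 24 genes taken by lowest p among those not called. Gulo has the widest bar at 5.73 with SE 1.03, Slc16a6 and Pck1 follow among the higher genes, and Clec2h at −2.75 is the lowest.

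Along the nephron, the called markers were one of the convoluted proximal tubule and one of the distal tubule, and no other segment had any. Of 17 markers of the convoluted proximal tubule, all were tested, 1 fell (Slc6a19) and 0 rose, 7 were lower and 3 higher at an unadjusted p below 0.05, and the median was −0.44 against −0.0031 over all genes. Slc5a12, a lactate transporter of this part, had 70.4, 62.6 and 44.9 CPM in control and 34.4, 25.0 and 22.4 CPM in HFD-STZ (−1.12, adjusted p = 0.2, edgeR). Of 10 straight proximal tubule markers none passed either threshold, with a median of −0.09. In the thick ascending limb 11 markers had a median of −0.04 with 0 called, and 1 was lower at an unadjusted p below 0.05. With the Y-linked term the medians of the straight part and the thick limb were 0.14 and 0.43. The summed level of the convoluted proximal list was 1855 to 2514 CPM in control and 1465 to 2249 CPM in HFD-STZ, so the sums overlapped. Taken singly, 9 of the 17 members did not overlap (2 higher and 7 lower), against 11.4% of all genes.

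In the collecting duct, principal and intercalated cells gave 0 called markers of 13 and 14. The principal cell list had a median of −0.03, with 2 higher at an unadjusted p below 0.05. Tfap2b, a transcription factor of the distal nephron, had 94.2, 94.3 and 81.4 CPM in control and 176, 294 and 126 CPM in HFD-STZ (1.14, adjusted p = 0.31, edgeR). The intercalated list had a median of −0.21, with 4 lower. Foxi1, the factor that specifies intercalated cells, had 9.41, 8.64 and 9.46 CPM in control and 4.77, 1.75 and 5.38 CPM in HFD-STZ, and Slc26a4, the chloride-bicarbonate exchanger pendrin, 18.2, 22.4 and 16.8 CPM and 9.65, 13.1 and 14.7 CPM. Their groups did not overlap, as for 11.4% of all genes, at −1.15 (adjusted p = 0.36, edgeR) and −0.62 (adjusted p = 0.56, edgeR).

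In the glomerulus and vessels most markers had negative estimates without a call. Of 15 podocyte markers 0 were called, 5 were lower at an unadjusted p below 0.05 and 14 had a negative estimate (median −0.43). Over all genes 3.95% were lower at that threshold. Podxl, Clic5 and Synpo, of the podocyte surface and foot processes, had −1.07, −0.74 and −0.87 at edgeR adjusted p of 0.36, 0.39 and 0.56. The summed podocyte level was 192 to 254 CPM in control and 137 to 232 CPM in HFD-STZ. Endothelial markers had 14 of 14 negative estimates (median −0.52), 2 of them at an unadjusted p below 0.05. Without HFD-STZ replicate 2 the median was −0.32 with 13 negative, and with the Y-linked term −0.34 with 12 negative. The 2 genes were Egfl7 (−1.15, adjusted p = 0.5, edgeR) and the junction cadherin Cdh5 (−0.63, adjusted p = 0.64, edgeR).

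Mesangial, pericyte and smooth muscle markers had 10 of 10 negative estimates (median −0.68), with 0 called and 5 at an unadjusted p below 0.05. Over all genes 3.95% were lower at that threshold. Pdgfrb, the growth factor receptor of pericytes, had 8.66, 7.31 and 6.52 CPM in control and 3.47, 2.70 and 2.89 CPM in HFD-STZ (−1.30, adjusted p = 0.11, edgeR). Tagln, an actin-binding protein of smooth muscle, had 9.14, 6.07 and 8.84 CPM and 3.79, 0.539 and 3.05 CPM (−1.60, adjusted p = 0.32, edgeR), and the integrin chain Itga8 12.6, 4.53 and 4.98 CPM and 2.93, 4.18 and 2.85 CPM (−1.17, adjusted p = 0.46, edgeR). For this list even the sums were apart, with 66.5 to 90.4 CPM in control and 31.3 to 57.8 CPM in HFD-STZ. Fibroblast markers were similar, with sums of 94.1 to 103 and 53.5 to 68.9 CPM, 9 of 10 negative estimates (median −0.45), 0 called and 3 at an unadjusted p below 0.05. The proteoglycan Dcn lay at −0.99 (adjusted p = 0.39, edgeR) and the matrix protein Fbln1 at −1.05 (adjusted p = 0.44, edgeR).

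Collagens and their enzymes included the called gene Col5a2. Of 28 tested, 1 fell and 0 rose, 9 were lower and 1 higher at an unadjusted p below 0.05, and the median was −0.36. Over all genes 3.95% were lower and 3.48% higher at that threshold. Without HFD-STZ replicate 2, 5 rather than 9 were lower at that threshold. The cross-linking enzymes were split. Loxl2 lay above control (values given above), whereas Loxl1 had 2.62, 3.78 and 2.84 CPM in control and 1.63, 1.35 and 0.923 CPM in HFD-STZ (−1.26, adjusted p = 0.27, edgeR) and Lox 1.55, 1.45 and 3.55 CPM and 1.19, 0.135 and 0.361 CPM (−1.84, adjusted p = 0.45, edgeR). The groups did not overlap in any of these, which were named for their low p, and 11.4% of all genes did not overlap.

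Markers of immune cells and of neighbouring tissues were checked because either can enter a kidney sample. Macrophage markers gave 0 calls and 0 of 10 at an unadjusted p below 0.05 (median −0.01, sums of 54.6 to 75.2 CPM in control and 38.7 to 93.1 CPM in HFD-STZ). Of 10 lymphocyte markers 1 was higher at an unadjusted p below 0.05, the immunoglobulin chain Ighm, with 1.98, 3.37 and 2.12 CPM and 18.2, 1.48 and 13.3 CPM and overlapping groups. Of 7 neutrophil markers 3 were tested, with sums of at most 1.02 CPM, and Ly6g and Mpo had 0 counts in all 6 libraries. White adipocyte markers had 8 of 8 negative estimates (median −3.19), 0 called, and sums of 24.2 to 88.0 CPM in control and 15.1 to 28.8 CPM in HFD-STZ. The high control value was replicate 3 alone, as in Retn, for the fat hormone resistin (0, 0.208 and 4.60 CPM in control and 0.108, 0 and 0.0803 CPM in HFD-STZ), and Thrsp (0.749, 0.914 and 6.47 CPM and 0.271, 0 and 0.361 CPM). The part of this fat signal in other results was not tested. Adrenal markers were tested for 1 of 11, and Cyp11b1, Cyp11b2, Cyp21a1, Th, Chga and Pnmt had 0 counts in the 6 libraries. Urothelial sums were 1.16 to 12.8 CPM in control and 1.48 to 14.8 CPM in HFD-STZ (5 of 9 tested), and those of red cells 31.8 to 164 and 33.7 to 123 CPM, with 0 calls in either.

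The lists for injury, cilium, oestrogen response and midkine, each with 1 called gene, held few other members past either threshold. They were chosen with earlier results of these data known, so a called gene in each is not a finding about the list. Of 16 tubular injury and repair genes 1 rose (Sox9) and none of the others passed even the unadjusted threshold (median −0.04). The chemokine Cxcl1 had 0.374, 0.0831 and 0.435 CPM in control and 0.542, 3.51 and 3.09 CPM in HFD-STZ, apart but at an SE of 1.67 on the log2 scale (2.89, adjusted p = 0.74, edgeR). Of 25 cilium and hedgehog genes only Dzip1 passed either threshold (median 0.07). Of 11 genes of the oestrogen and progesterone response only Greb1 did (median 0.20), and the membrane oestrogen receptor Gper1 had 1.05 (adjusted p = 0.69, edgeR). Of 13 genes for midkine, pleiotrophin and their receptors Mdk was called, and Lrp1, an endocytic receptor that binds midkine, had 11.1, 10.9 and 8.95 CPM in control and 7.59, 3.64 and 3.69 CPM in HFD-STZ (−1.03, adjusted p = 0.39, edgeR).

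The SLITRK family held genes on both sides. Slitrk4 rose, while Slitrk1 had 12, 18 and 36 counts in control and 0 in each HFD-STZ library. Taking 3 counts over the whole HFD-STZ group as the limit that a count of 0 allows, Slitrk1 was at least 13.6-fold lower, with adjusted p = 0.12 from edgeR. The receptor kinase Ntrk3 had 4.12, 3.86 and 4.12 CPM and 2.49, 2.56 and 2.61 CPM (−0.66, adjusted p = 0.62, edgeR). Of the 13 genes in this list 8 were tested. In the nephron development, WNT and Notch list 0 of 21 were called, with 1 higher and 1 lower at an unadjusted p below 0.05 (median −0.03). The receptor Notch2 was the lower one (−0.78, adjusted p = 0.62, edgeR).

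Among transport and metabolism lists, the medians for amino acids and respiration were below 0 and that for fatty acid use was above it. Of 20 amino acid transport genes 1 fell (Slc6a19), 4 were lower and 1 higher at an unadjusted p below 0.05, and 15 had a negative estimate (median −0.29). The transporter Slc43a2 had 22.1, 23.7 and 22.5 CPM in control and 16.3, 6.74 and 13.9 CPM in HFD-STZ (−0.87, adjusted p = 0.46, edgeR). Of 17 genes of tryptophan breakdown and NAD synthesis 1 fell (Acmsd) and 2 were lower at an unadjusted p below 0.05, the second being kynureninase, Kynu (1.23, 6.15 and 5.29 CPM and 2.17, 0.674 and 1.08 CPM, overlapping, −1.63, adjusted p = 0.55, edgeR). Nuclear genes of oxidative phosphorylation had 26 of 30 negative estimates (median −0.18), with 0 called and 3 lower at an unadjusted p below 0.05, among them the ATP synthase subunit Atp5pb (−0.69, adjusted p = 0.6, edgeR) and the cytochrome oxidase subunit Cox5a (−1.13, adjusted p = 0.55, edgeR). The groups overlapped for Cox5a but not for Atp5pb. Among libraries with Y-linked transcripts Atp5pb and Cox5a differed by −0.14 and −0.28 on the log2 scale, and among those without by −1.03 and −1.14. Without HFD-STZ replicate 2, none of the 30 passed the unadjusted threshold, and with the Y-linked term 1 did.

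Fatty acid oxidation and PPAR-alpha targets had 0 of 25 called, 3 higher and 2 lower at an unadjusted p below 0.05 (median 0.15). Ppara itself had 16.9, 14.4 and 11.8 CPM in control and 22.4, 24.5 and 36.6 CPM in HFD-STZ (0.96, adjusted p = 0.29, edgeR). Its known target Ehhadh, of peroxisomal oxidation, lay the other way with 31.3, 44.6 and 33.6 CPM and 14.1, 18.2 and 24.4 CPM (−0.95, adjusted p = 0.48, edgeR), as did the mitochondrial thiolase Acaa2 (−0.75, adjusted p = 0.45, edgeR). Insulin and IGF signalling had 0 of 22 called and 1 lower at an unadjusted p below 0.05, the circulating carrier Igfbp3, with 110.4, 87.1 and 69.5 CPM in control and 33.6, 52.3 and 15.7 CPM in HFD-STZ (−1.40, adjusted p = 0.33, edgeR; list median −0.15).

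Stress and growth arrest lists gave 0 calls. The p53 list had 6 of 17 higher and 0 lower at an unadjusted p below 0.05 (median 0.33), with sums of 98.3 to 103 CPM in control and 113 to 162 CPM in HFD-STZ. Over all genes 3.48% were higher and 3.95% lower at that threshold. Cdkn1a, the cell cycle inhibitor p21, had 2.14, 1.62 and 1.79 CPM and 5.69, 5.26 and 6.82 CPM, level within each group (1.69, SE 0.40, adjusted p = 0.22, edgeR). Eda2r, a death receptor induced by p53, had 0.535, 0.499 and 0.383 CPM and 1.14, 0.944 and 0.883 CPM (1.08, adjusted p = 0.6, edgeR). Cell cycle genes had 0 of 15 at an unadjusted p below 0.05 (median 0.28), and the median was 0.14 without HFD-STZ replicate 2 and −0.21 with the Y-linked term. Immediate early genes had 1 of 16 higher, Nr4a1 (1.17, adjusted p = 0.66, edgeR; list median 0.29). The hypoxia list had 1 of 17 higher and 2 lower (median −0.05), among the latter the histone demethylase Kdm3a, with 12.2, 10.1 and 9.87 CPM in control and 7.10, 6.88 and 6.54 CPM in HFD-STZ (−0.65, adjusted p = 0.4, edgeR). Circadian clock genes (18 tested, median −0.02), heat shock and unfolded protein genes (19, 0.17) and interferon response genes (22, 0.10) had 0 at an unadjusted p below 0.05. Of the clock genes, Cry2 had the lowest p (−0.57, adjusted p = 0.7, edgeR). With libraries scaled by size only, the median of all genes moved to −0.74 on the log2 scale and the list medians given above as positive turned negative. That of the p53 list became −0.42, with 0 of 17 at an unadjusted p below 0.05, and without HFD-STZ replicate 2 it was 0.36, with 4 higher.

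**Figure D5:**
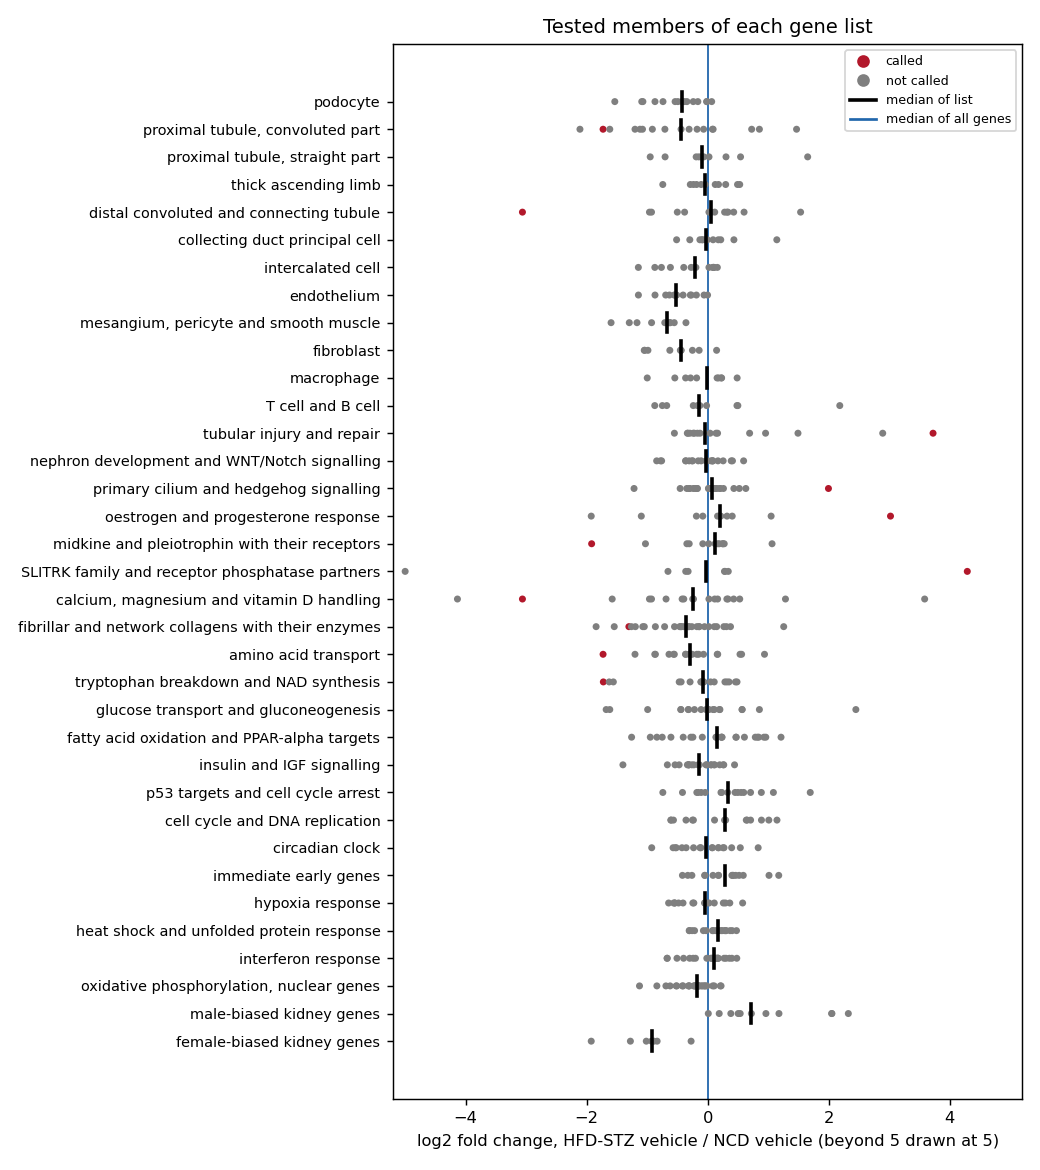
Each row is a gene list and each point a tested member at its log2 fold change of HFD-STZ vehicle over NCD vehicle (horizontal axis, values beyond 5 drawn at 5), red where called. Black bars are list medians and the blue line is the median of all genes. Among the lists drawn, medians range from −0.93 for female-biased genes to 0.72 for male-biased genes, and the vessel and stroma lists lie left of the blue line.

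The groups differed in how many libraries held Y-linked transcripts, as counted above, so each was also read within libraries with and without Y-linked transcripts. Male-biased kidney genes had 11 of 11 positive estimates (median 0.72) and female-biased genes 7 of 7 negative (median −0.93), with 0 called in either list. With size-only scaling these medians were 0.26 and −1.52, and 5 of the 11 male-biased genes turned negative. With the Y-linked term they were 0.03 and −0.62. The 5 genes of the sex chromosome check also gave 0 calls. Cyp4b1, a male-biased cytochrome P450, had 141, 13.8 and 14.0 CPM in control and 19.0, 249 and 429 CPM in HFD-STZ, so its level followed the Y-linked transcripts in both groups. Nudt19 (57.6, 63.5 and 53.6 CPM and 54.9, 119.6 and 220.2 CPM) and the urea cycle gene Ass1 (185, 158 and 134 CPM and 54.4, 63.1 and 139.8 CPM) overlapped between groups. For the called genes the pattern was another: Sox9 differed by 4.06 on the log2 scale among libraries with Y-linked transcripts (2 HFD-STZ against 1 control) and by 3.22 among those without (1 against 2). S100g differed by −2.75 and −3.34, Slc6a19 by −1.92 and −1.40, Acmsd by −1.68 and −1.97, and Mdk by −1.94 and −1.79. Among genes not called, Pck1 differed by 2.29 and 1.93, Vdr by 1.33 and 0.88, Slc5a2 by −2.09 and −1.10 and Cyp24a1 by 3.79 and 1.74. These differences used log2 of the mean CPM plus 0.25, and with 1 library on a side they have no test.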

How the data were processed

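Whole-kidney RNA was measured in 9 libraries, and the authors deposited their raw counts for 55359 Ensembl genes in a table with 0 further sample columns. Per the submitters' processing notes, reads went through FastQC and Trim Galore and were aligned by STAR to GRCm39. Versions, the counting program and its settings for strand and multiple mapping are not given in the labels, so genes that share reads with copies, overlapping or antisense genes are uncertain. The kit kept strand and took messenger RNA on oligo beads, per the labels' protocols. Groups came from titles, because the treatment label reads the same for all libraries. Symbols were matched by Ensembl identifier for 99.5% of tested genes.

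Counts were fitted in R 4.3.3 with edgeR 4.0.16: filterByExpr (minimum count 10) kept 17179 genes, TMM scaled the libraries, and all 9 libraries entered 1 robust quasi-likelihood fit on group (6 residual degrees of freedom, common dispersion 0.0893). Tests are two-sided and p-values were adjusted by Benjamini-Hochberg across the 17179 genes, and SE were derived from the F statistic. DESeq2 1.42.0 and limma 3.58.1 (voom) served as alternatives. Depth was 15109595 to 47522079 counts per library, and 3 counts is the limit a count of 0 allows, for counting error only. Genes named are the called genes, the 12 uncalled protein-coding genes of lowest p in each direction (mean log2 CPM at least 1, no overlap, no gene-model numbers) and up to 4 members of lowest p in each of 41 textbook gene lists. The members and lists were chosen with earlier results of these data known. Lists are described by counts and medians, without a set test. Some named items are not reported here.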

Additional observations from a re-analysis of the deposited data

How the results depend on the processing

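The count of called genes was 9. It was 29 with library size only (7 higher, 24.1%, against 44.4% with TMM), 425 with no filter on low counts, 126 with DESeq2, 3 with only the 6 libraries compared, 42 with a term for libraries with Y-linked transcripts and 2 under a replicate block. The cause of these changes was not tested, beyond fewer libraries or more genes entering some fits. DESeq2 size factors in edgeR and limma-voom each called 12, and leaving out mitochondrially encoded genes 9. Without any 1 library the count ranged from 2 to 28. It was 2 without control replicate 1, 2 or 3 or HFD-STZ DHZ replicate 3, 3 without HFD-STZ vehicle replicate 3, 8 without HFD-STZ vehicle replicate 2, 28 without HFD-STZ vehicle replicate 1, and 6 and 4 without HFD-STZ DHZ replicates 1 and 2. Of the 9 genes, Sox9 and S100g were called under every one of these settings. All 9 were kept with DESeq2, DESeq2 size factors, no filter, the Y-linked term and without mitochondrial genes, 6 with limma-voom, 3 with only the 6 libraries (Sox9, S100g and Slitrk4), 4 with library size only and 2 with the block. The titles do not say that replicate numbers pair the libraries, so a number is used here only to name a library. Deviations from the group means correlated at −0.52, −0.36 and −0.19 between same-numbered control and HFD-STZ libraries. Between differently numbered ones they correlated at −0.23 to 0.41. Same-numbered libraries also differed in whether they held Y-linked transcripts, so these values cannot decide whether the libraries are paired. No named gene changed sign in these fits, but some rises nearly vanished. Over the settings other than leaving out 1 library, the smallest estimates were 0.05 for Slc2a2, 0.25 for Ppara, 0.26 for Tfap2b and 0.28 for Vnn1. The main fit gave 0.85, 0.96, 1.14 and 1.21. Nudt19 differed by 1.56 among libraries with Y-linked transcripts and −0.09 among those without, and Retn by 0.21 and −2.89, so both changed sign there. HFD-STZ vehicle replicate 2 has only 2.13 M nuclear coding counts, which limits its precision for low genes.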

Other observations

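Genes outside the naming rule were looked at after their values were seen, among the 42 that edgeR called once libraries with Y-linked transcripts had a term of their own. Several are transporters and signalling genes. The proline transporter Slc6a7 had 0.321, 0.249 and 0.332 CPM in control and 1.68, 1.62 and 1.93 CPM in HFD-STZ (2.58 on the log2 scale with the term, adjusted p = 0.032, edgeR), and Slc25a25, a mitochondrial carrier of ATP-magnesium and phosphate, 7.54, 3.95 and 3.65 CPM and 17.7, 11.9 and 31.1 CPM (1.83, adjusted p = 0.04, edgeR). Rgs2, which damps signalling of G-protein-coupled receptors, had 5.51, 6.77 and 7.59 CPM and 16.2, 11.9 and 16.8 CPM (1.31, adjusted p = 0.04, edgeR). On the lower side stood Car14, a membrane carbonic anhydrase of the proximal tubule, with 17.1, 10.6 and 10.8 CPM and 4.39, 3.10 and 5.82 CPM (−1.59, adjusted p = 0.04, edgeR), and the chemokine Cxcl14, with 6.58, 6.31 and 6.19 CPM and 2.66, 1.21 and 0.963 CPM (−1.86, adjusted p = 0.04, edgeR). In the fit without the term their adjusted p were 0.052, 0.21, 0.14, 0.14 and 0.14 in that order. Of the vitamin D and sugar genes described earlier, Cyp27b1 (−4.56, adjusted p = 0.03, edgeR), Slc2a5 (−1.46, adjusted p = 0.03, edgeR), Pck1 (2.26, adjusted p = 0.025, edgeR) and Slc5a2 (−1.61, adjusted p = 0.03, edgeR) were called with the term, whereas Vdr and Cyp24a1 were not.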
